A study of Homo sapiens with 6 samples.

Results

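The 10 genes described here are ATF4, DDIT3, TRIB3, CHAC1, SESN2, DDIT4, ASNS, PSAT1, PHGDH and SLC7A11, which were chosen by symbol as a set around the transcription factor ATF4 and the amino acid response. Of them, 8 had a row among the 12306 rows of the deposited expression table, and all 8 were among the 9229 rows that were abundant enough to test. TRIB3, a pseudokinase that restrains ATF4 and CHOP, and PSAT1, an aminotransferase of serine synthesis, had no row among those used here and were not analysed. RNA came from 92.1, an established human uveal melanoma cell line, grown in RPMI-1640 with serum. One group had received 1 µM VS-4718, a compound that inhibits focal adhesion kinase, and the other the DMSO vehicle, each for 2 h and with 3 libraries. All libraries come from this single line, and the labels do not say whether replicates were separate cultures, so the spread behind each p-value may be no more than technical.

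ATF4 is a bZIP transcription factor at the centre of the integrated stress response. Kinases that sense amino acid shortage, unfolded protein in the endoplasmic reticulum (ER), double-stranded RNA or haem deficiency phosphorylate the initiation factor eIF2alpha, which lowers general protein synthesis while ATF4 messenger RNA is translated more. ATF4 then raises genes for amino acid synthesis, uptake and redox defence, and also DDIT3, whose product CHOP can promote apoptosis when stress persists. Because much of this control acts on translation, ATF4 transcript levels do not report the amount of ATF4 protein.

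Values are log2 expression on a scale resembling TPM (transcript shares set to a fixed sum), which is corrected for transcript length and keeps no read total, so the depth behind each value is unknown. Library to library rank correlations across genes were between 0.985 and 0.988 within groups and between 0.984 and 0.988 across groups. Row names were mouse-style symbols in capitals, and 2665 of the 12306 matched no human symbol or single-gene synonym. Some abundant genes were almost missing (GAPDH at 0.604 TPM-like units against 1692 for ALDOA). Each of the 8 rows carried a current human symbol, but levels of different rows are comparable only as far as the deposited quantification treated them alike. Melanocyte lineage markers summed to between 7105 and 7893 TPM-like units per library, led by PMEL and TYRP1, although MLANA, TYR and DCT were too low to test. Of 6 fibroblast marker rows only FBLN1 was testable (log2 means 4.70 and 4.82, no overlap between groups). Only 1 of 10 immune markers (PTPRC) and 1 of 8 epithelial markers (KRT18) had a row, at no more than 0.142 and 0.501 TPM-like units. Given the GAPDH value, a low or missing marker row is no measure of absence here. The 3 endothelial rows summed to between 21.9 and 26.6 units in vehicle and between 23.9 and 28.8 with VS-4718. Their part in the results below was not tested.

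None of the 8 genes passed limma with Benjamini-Hochberg adjustment over all 9229 rows, where 12 rows did (0.13%). DDIT3 and ATF4 came closest. Both were lower in every VS-4718 library than in any vehicle library, with the 19th and 36th smallest p of all rows (in limma, unadjusted p = 0.000209 and 0.000707), while the enzymes, the transporter and the remaining stress genes overlapped between groups. Groups failed to overlap in 16.4% of all tested rows, and in 11.2% with VS-4718 as the lower group. The higher group was VS-4718 in 5.15%. An unadjusted p under 0.05 was reached by 9.76% of rows, 6.74% as lower and 3.02% as higher ones. The treated mean was the lower one for 5 of the 8 genes and for 58.2% of all rows, and the median log2 fold change was -0.09 over the 8 genes and -0.03 over all tested rows. Fold changes throughout are VS-4718 minus vehicle. In bulk RNA, fewer cells with a transcript and less of it per cell cannot be told apart.

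**Figure D1:**
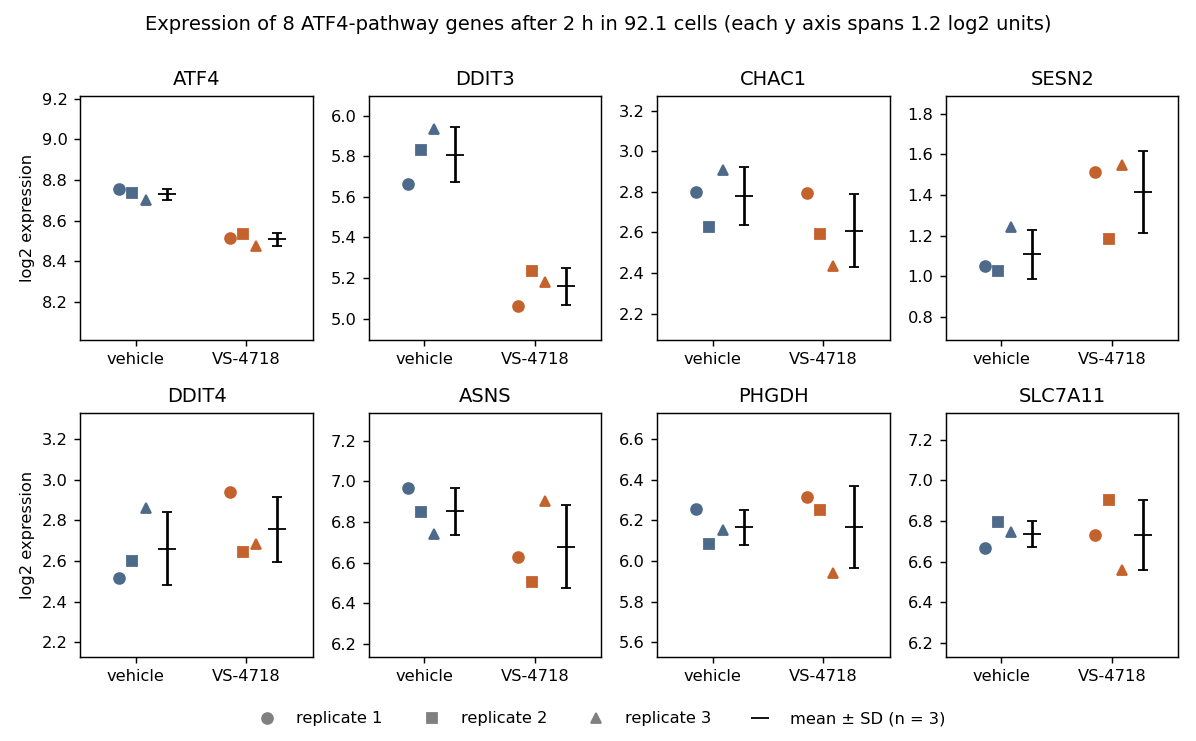
Log2 expression of the 8 measured genes in each library, with vehicle in blue, VS-4718 in orange, a marker shape per replicate number, and the group mean ± SD (n = 3) as a bar. Each y axis covers the same span of log2 units; the groups are apart for ATF4 and DDIT3 and overlap for the other 6 genes.

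ATF4, the regulator itself, was the most abundant of the 8, with a mean above that of 97.1% of all rows in the table. It is encoded on chromosome 22 from 39519695 to 39522685 on the plus strand (GENCODE 29, GRCh38, protein coding). Its log2 expression was 8.76, 8.74 and 8.70 in vehicle libraries 1, 2 and 3. With VS-4718 it was 8.51, 8.54 and 8.47. The 3 treated values lay close together below the 3 vehicle values, and the spread within each group (SD 0.03 in both) was small beside the distance between them. The log2 fold change was -0.22 (SE 0.04, 95% interval -0.31 to -0.13), a ratio of geometric means of 0.857. Its adjusted p in limma was 0.18. By size this change ranked only 2164th of all tested rows, so its low unadjusted p went with a small difference and a small spread.

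DDIT3 had the largest difference of the 8. It encodes CHOP, a bZIP factor of the C/EBP family that ATF4 induces, and lies on chromosome 12 from 57516588 to 57521737 on the minus strand. Vehicle libraries 1, 2 and 3 had log2 values of 5.66, 5.83 and 5.93. VS-4718 libraries had 5.06, 5.24 and 5.18. Vehicle replicate 1 was the lowest of its group and still stood above every treated library. The log2 fold change was -0.65 (SE 0.09, 95% interval -0.87 to -0.43), or a ratio of 0.638 with an interval from 0.549 to 0.741, with an adjusted p of 0.1 in limma. It was the 123rd lowest fold change among the 9229 rows.

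Promoter sequence (RefSeq, GRCh38.p14, 250 bases before to 50 after each annotated start) was searched for elements that bZIP factors are known to bind, and 3 genes held one. In all, 14 entries matched 9 of the 10 genes, TRIB3 and PSAT1 included, and SLC7A11 had none. Matches are counted below by gene for these 9 and by promoter entry for the shares, so the counts are not directly comparable. Searched on both strands were the C/EBP-ATF composite element through which ATF4 acts (TGATGNAA), the AP-1 element (TGANTCA) and the cAMP response element (TGACGTCA), none of which contains another. The composite was found in ASNS and CHAC1 and in 3.62% of all 35116 promoters, the AP-1 element in DDIT3 and in 7.71% of promoters, and the cAMP response element in none of the 9 genes and in 1.85% of promoters. The matches are printed below on the strand of the gene, 5′ to 3′, with the matching letters in capitals, because they show which measured genes carry an element close to the start.
ASNS: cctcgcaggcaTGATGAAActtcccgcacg
CHAC1: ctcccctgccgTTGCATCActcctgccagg
DDIT3: gcgcgcgcgcaTGACTCAcccacctcctcc
The ASNS stretch is chr7:97872458-97872487 (minus strand), and its match begins 68 bases before the start. That of CHAC1 is chr15:40953251-40953280 (plus strand), with the composite on the opposite strand, 209 bases before the start. The DDIT3 stretch is chr12:57520737-57520766 (minus strand), with the match 238 bases before the start. All 3 matches lie inside the GENCODE spans given for these genes. Each start counted from is a RefSeq start downstream of the 5′ end of that span. In GENCODE 29 the matches also fall in an exon of 3 of 17 ASNS transcripts and 2 of 5 CHAC1 transcripts, and in no exon of the 6 DDIT3 transcripts. A match describes letters only. Sequence outside this window was not searched. DDIT3 or another gene without the composite here may therefore carry it elsewhere. ATF4 itself, one of the lower genes, held none of the 3 motifs in this window.

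CHAC1, an enzyme that degrades glutathione and is a target of ATF4 and CHOP, had low expression. It lies on chromosome 15 from 40952962 to 40956519. Its log2 values were 2.80, 2.63 and 2.91 in vehicle and 2.80, 2.59 and 2.44 with VS-4718. The first VS-4718 library was level with the first vehicle library, and the groups overlapped. The log2 fold change was -0.17 (SE 0.14, 95% interval -0.50 to 0.16), with an adjusted p of 0.72 in limma. It was -0.0839 without VS-4718 replicate 3, -0.105 without vehicle replicate 3 and -0.264 without VS-4718 replicate 1.

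SESN2 and DDIT4 both restrain the growth kinase complex mTORC1. SESN2 encodes a sestrin that senses leucine, and it had the lowest level of the 8. Its log2 values were 1.05, 1.03 and 1.24 in vehicle and 1.51, 1.18 and 1.55 with VS-4718. The second VS-4718 library lay below the third vehicle library, so the groups overlapped although the treated mean was the higher one. The log2 fold change was 0.31 (SE 0.17, 95% interval -0.10 to 0.71, adjusted p = 0.61 in limma). DDIT4 encodes REDD1, which acts through the TSC complex, and stood at 2.52, 2.60 and 2.86 in vehicle and 2.94, 2.64 and 2.68 with VS-4718. Its values were interleaved, with a log2 fold change of 0.10 (SE 0.14, adjusted p = 0.86 in limma) that ran from 0.0034 without VS-4718 replicate 1 to 0.196 without vehicle replicate 3. SESN2 lies on chromosome 1 from 28259527 to 28282491 and DDIT4 on chromosome 10 from 72273920 to 72276036.

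The biosynthetic enzymes were abundant. ASNS, which makes asparagine from aspartate and glutamine, is a classic ATF4 target on chromosome 7 (97852118 to 97872542). It had log2 values of 6.97, 6.85 and 6.74 in vehicle and 6.63, 6.50 and 6.90 with VS-4718. Treated libraries 1 and 2 were below all vehicle libraries, and treated library 3 was above vehicle libraries 2 and 3. The log2 fold change was -0.17 (SE 0.11, 95% interval -0.44 to 0.09, adjusted p = 0.66 in limma). With a library left out it ran from -0.0872 without VS-4718 replicate 2 (unadjusted p = 0.457) and -0.116 without vehicle replicate 1 to -0.287 without VS-4718 replicate 3 (unadjusted p = 0.017, adjusted p = 0.38). PHGDH, the first enzyme of serine synthesis, is on chromosome 1 from 119648411 to 119744226. Its log2 values were 6.26, 6.09 and 6.15 in vehicle and 6.32, 6.25 and 5.94 with VS-4718. The treated group held both its highest and its lowest value. The ratio of geometric means was 1.00 with a 95% interval from 0.839 to 1.20 (adjusted p = 0.99 in limma).

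SLC7A11, the cystine importer of the xc- exchanger that feeds glutathione synthesis, lies on chromosome 4 from 138164097 to 138242349. Its log2 values were 6.67, 6.79 and 6.74 in vehicle and 6.73, 6.90 and 6.56 with VS-4718. Treated libraries again stood on both sides of the vehicle group. The ratio was 0.997 (95% interval 0.856 to 1.16, adjusted p = 0.99 in limma), and the sign of its log2 difference turned positive (0.03) when libraries were scaled to a common median. VS-4718 replicate 3 was the highest treated library for ASNS and the lowest for PHGDH and SLC7A11.

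**Figure D2:**
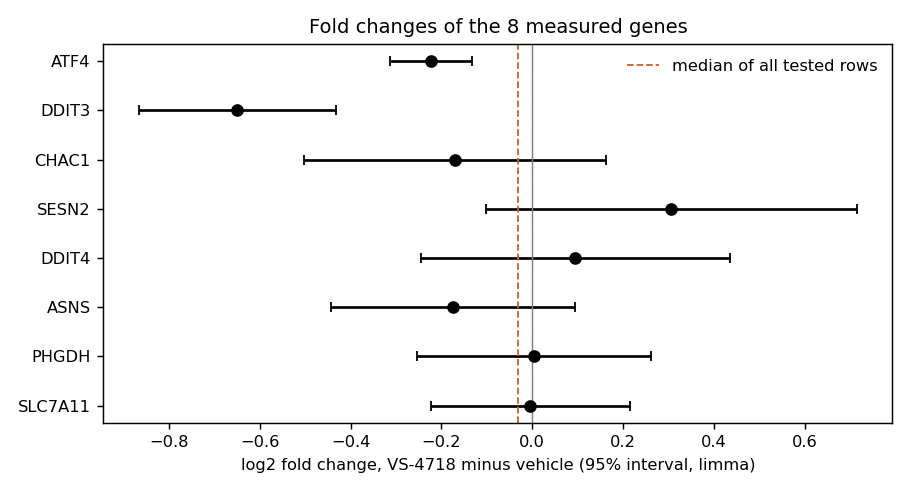
Log2 fold change of each gene (VS-4718 minus vehicle, points) with its 95% interval from limma (bars), beside 0 (grey line) and the median of all tested rows (dashed line). The intervals of ATF4 and DDIT3 lie wholly below 0 and those of the other 6 genes include it; the intervals are not adjusted for the number of rows tested.

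Levels of the 8 genes followed the order ATF4, ASNS, SLC7A11, PHGDH, DDIT3, DDIT4, CHAC1 and SESN2, on this length-corrected scale. ATF4 was above ASNS in all 6 libraries. ASNS and SLC7A11 were not separable, each being the higher in 3 libraries, and the same was true of DDIT4 and CHAC1. PHGDH exceeded DDIT3 in all 6, and its lowest value, in VS-4718 replicate 3 (5.94), was next to the highest DDIT3 value, in vehicle replicate 3 (5.93).

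Differences from ATF4 within a library do not move when a library is rescaled, and they set each gene against its regulator. DDIT3 minus ATF4 was -3.09, -2.91 and -2.77 log2 units in vehicle and -3.45, -3.30 and -3.29 with VS-4718. DDIT3 was therefore lower relative to ATF4 in each treated library, by a mean of -0.43. SESN2 minus ATF4 went from a mean of -7.62 ± 0.14 (SD, n = 3) to -7.09 ± 0.23, and SLC7A11 minus ATF4 from -2.0 ± 0.08 to -1.78 ± 0.14; neither pair of groups overlapped. Such a difference also carries the difference of ATF4 with its sign turned. For SLC7A11, whose own log2 fold change was -0.0044 with overlapping groups, the 0.22 is that of ATF4 (-0.22) over again; for SESN2, whose own groups also overlapped, it adds to 0.31. These 3 of the 7 differences had an exact two-sided permutation p of 0.1, the smallest that 3 against 3 libraries can give. After adjustment over the 7 this permutation p was 0.23. The share of all tested rows whose difference from ATF4 sets the groups apart was not computed. The count of 3 therefore has no background to be read beside. The mean differences were 0.05 for ASNS, whose treated values ranged from -2.03 to -1.57, 0.05 for CHAC1, 0.23 for PHGDH and 0.32 for DDIT4, with exact permutation p of 0.8, 0.7, 0.2 and 0.2.

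**Figure D3:**
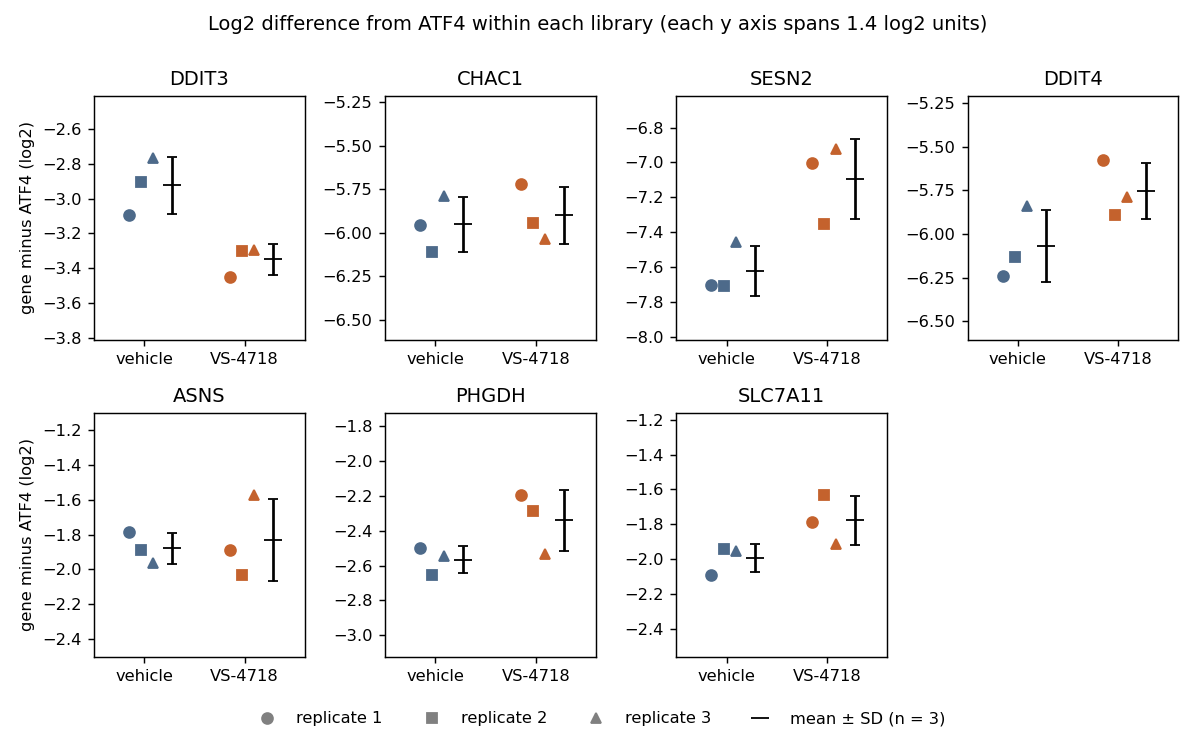
Log2 value of each gene minus that of ATF4 in the same library, for the other 7 genes, with vehicle in blue, VS-4718 in orange and the group mean ± SD (n = 3). DDIT3 minus ATF4 is lower in all 3 treated libraries; for SLC7A11, whose own mean hardly differed (-0.0044), the separation is the lower ATF4 value in treated libraries.

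Across the 6 libraries, the pattern of ATF4 among 7457 other tested rows with a human symbol or synonym was most like that of DUSP2 (Pearson r = 0.991), SRSF6 (0.985) and CYR61 (0.98). DUSP2 is a nuclear MAP kinase phosphatase, SRSF6 a splicing factor, and CYR61 (CCN1) a secreted matrix protein. All were lower with VS-4718 (log2 fold changes -0.65, -0.36 and -0.71). CYR61 was past the adjusted threshold in the main fit (adjusted p = 0.023 in limma), while DUSP2 and SRSF6 were not. For DDIT3 the closest were ACIN1 (0.999), PANK4 (0.99) and TRIB1 (0.989), also lower (log2 fold changes -0.41, -0.72 and -0.36). The high r of these rows thus includes a shared difference between groups. DDIT3 and ATF4 had an r of 0.911 with each other. SESN2 ran opposite to ATF4 (r = -0.851), and SLC7A11 (0.147) and PHGDH (0.134) bore little relation to it. These are descriptions over 6 libraries that fall into 2 treatment groups, and the closest rows were picked for their high r, so they are given with no p.

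The wider pathway was followed through 7 lists of 122 genes in all, of which 92 could be tested. None of the 92 passed limma with adjustment over all rows, and 9 (9.78%, against 9.76% of all tested rows) had an unadjusted p under 0.05, 4 lower and 5 higher. Groups did not overlap for 15 (16.3%, against 16.4%). Their median log2 fold change was -0.02. The treated mean was the lower one for 50 of the 92, against 58.2% of all tested rows. Counts of lower and higher means in each list below are to be read beside that share, and were not tested.

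Upstream of ATF4, the eIF2alpha kinases EIF2AK1, EIF2AK3 (PERK) and EIF2AK4 (GCN2) had log2 fold changes of 0.00, 0.07 and 0.02. In the list of kinases, eIF2 and eIF2B subunits and phosphatase subunits, 9 of 14 tested genes had lower means and none had an unadjusted p under 0.05. Its smallest p values belonged to EIF2S2, a subunit of eIF2 (-0.13, SE 0.07), IMPACT, an inhibitor of GCN2 (-0.19, SE 0.11), and DNAJC3, an inhibitor of eIF2alpha kinases (-0.16, SE 0.12).

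Among bZIP factors that act with ATF4 and CHOP, 6 of 7 tested genes had lower means. ATF3, a stress-induced repressor downstream of ATF4, stood at 3.99, 4.42 and 4.31 in vehicle and 3.74, 3.92 and 3.66 with VS-4718. Its groups did not overlap, and its log2 fold change was -0.46 (SE 0.14, unadjusted p = 0.012 and adjusted p = 0.38 in limma). BATF3 (-0.22, SE 0.08) and CEBPB (-0.17, SE 0.08) were also apart without passing. ATF5 (-0.0048) and CEBPG (0.06) were close to level.

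Other genes of serine, glycine and one-carbon metabolism had 5 of 7 lower means. MTHFD2, a mitochondrial folate enzyme, went from 7.11 ± 0.09 to 6.95 ± 0.04 (SD, n = 3), a log2 fold change of -0.17 (SE 0.06, adjusted p = 0.46 in limma). MTHFD2L (-0.47, SE 0.27) and SHMT1 (-0.36, SE 0.28) had larger differences with wide errors. MTHFD2L was -0.201 when treated library 3 was left out and -0.739 when treated library 1 was, and SHMT1 was -0.0853 without vehicle replicate 2 and -0.128 without VS-4718 replicate 2. SHMT2, which makes glycine in mitochondria, stood at 0.02 (SE 0.06). Amino acid transporters had 7 of 9 higher means. SLC7A1, a cationic amino acid transporter, was lower (-0.33, SE 0.13) and SLC38A2, a neutral one, higher (0.26, SE 0.11), both without overlap. SLC1A5, a glutamine transporter, stood at -0.18 (SE 0.09), also without overlap. SLC3A2, the partner chain of SLC7A11, stood at 0.07 (SE 0.11) with overlapping groups. The other amino acid and redox targets had 10 of 19 higher means, with BBC3, which encodes the pro-apoptotic protein PUMA, at 0.42 (SE 0.15; 0.264 without vehicle replicate 2), KLHL24 at 0.31 (SE 0.13) and GOT1, an aspartate aminotransferase, at 0.12 (SE 0.08).

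In the remaining ER stress arms, 11 of 19 tested genes had lower means. HERPUD1 and SEL1L, which serve degradation of misfolded ER proteins, were higher in every treated library. HERPUD1 stood at 3.51, 3.52 and 3.72 in vehicle and 3.87, 3.99 and 3.84 with VS-4718 (log2 fold change 0.32, SE 0.10, adjusted p = 0.40 in limma). SEL1L had a fold change of 0.35 (SE 0.12). HSPA5, the chaperone BiP, overlapped between groups (-0.08, SE 0.05). Of the sestrin and mTORC1 genes 9 of 18 were lower; SESN1, another sestrin, had the smallest p of the 92 genes (0.42, SE 0.10, unadjusted p = 0.0051, adjusted p = 0.31) and did not overlap. SEH1L (-0.18, SE 0.08) and SLC38A9, a lysosomal arginine sensor (-0.35, SE 0.16), were lower without overlap.

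**Figure D4:**
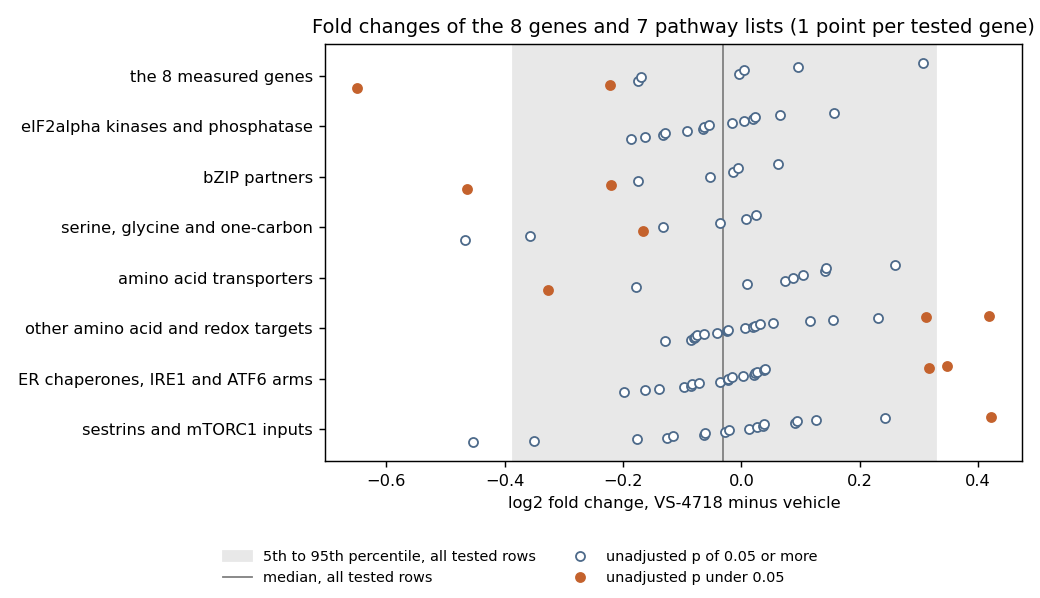
Log2 fold change (VS-4718 minus vehicle) of each tested gene in the 8-gene set and the 7 pathway lists, filled where the unadjusted limma p was under 0.05, over the 5th to 95th percentile range (grey) and median (line) of all tested rows. DDIT3 at -0.65 is the lowest point shown; DNAJC3 belongs to 2 lists.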

How the data were processed

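RNA of 92.1 cells was measured in 3 vehicle and 3 VS-4718 libraries, grouped by their titles. The deposited table gives a log2 value for each gene symbol. Its scale was taken as log2 TPM because columns put back on the linear scale sum to between 836527 and 840714. The submitters' processing notes name kallisto, with no version, and GRCh38; index, annotation and strandedness are not given in the sources at hand. TPM keeps no depth.

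The 25% of rows with the lowest means (below 0.70) were left out. The remaining rows were fitted with limma 3.58.1 in R 4.3.3 (mean-variance trend, group as the only term). P-values are two-sided and Benjamini-Hochberg adjusted over 9229 rows, with a threshold of 0.05. Within-library differences were tested by exact permutation (scipy 1.17.1), and figures drawn with matplotlib 3.10.9. Named were all members, up to 3 genes per list with the smallest p and, for ATF4 and DDIT3, the 3 rows with the highest Pearson r; EIF2AK1, EIF2AK3, EIF2AK4, ATF5, CEBPG, SHMT2, SLC3A2 and the cell type markers were named after their values were seen. The members and lists were chosen with earlier results of these data known. List genes without a row under their symbol were sought by synonym.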

Additional observations from a re-analysis of the deposited data

How the results depend on the processing

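Over the 14 or 15 alternative fits of each gene, no member passed the threshold, and ATF4, DDIT3, CHAC1, SESN2, DDIT4 and ASNS kept their sign. ATF4 ran from -0.24 to -0.19 (adjusted p 0.13 to 0.47) and DDIT3 from -0.72 to -0.59 (adjusted p 0.071 to 0.34). The unadjusted p of ATF4 was 0.0113 in limma without trend and 0.00334 with the replicate block, against 0.000707 in the main fit. For DDIT3 it was 0.000562 and 0.000373, against 0.000209. The ranks by p given above hold for the main fit only. With the replicate block, 0 rows of the table passed limma (793 at an unadjusted p under 0.05); the adjusted p was 0.23 for DDIT3 and 0.47 for ATF4. Residuals of libraries with the same number correlated at 0.135, 0.055 and 0.032 across rows, and those with different numbers at between -0.094 and 0.049. Each vehicle library correlated highest with the treated library of its own number. The series design text names no block, so no pairing was assumed in the main fit, and these values do not settle whether libraries were paired. Limma without trend also called 0 rows (910 unadjusted), and leaving out a library gave 0 to 7; other settings stayed between 8 and 12. The cause was not tested. Pathway genes with an unadjusted p under 0.05 numbered 4 to 7 with a library left out (4 without vehicle replicate 3) and 7 to 11 otherwise; members numbered 2 to 3, the 3 without VS-4718 replicate 3. Signs near 0 reversed. PHGDH ran from -0.0692 to 0.119 with a library left out; it was negative without vehicle replicate 2 (-0.0356) or 3 (-0.0008) and without treated library 1 (-0.0692) or 2 (-0.037). SLC7A11 ran from -0.0904 to 0.081; it was positive with median scaling (0.0294), without vehicle replicate 2 (0.0249) or 3 (0.0004) and without treated library 3 (0.081). CHAC1 minus ATF4 (-0.0389 to 0.133) was -0.0264 without vehicle replicate 2 and -0.0389 without treated library 1, and ASNS minus ATF4 (-0.0816 to 0.15) was -0.0816 without treated library 3. With a library left out, CHAC1 ran from -0.264 to -0.0839, ASNS from -0.287 to -0.0872 and DDIT4 from 0.0034 to 0.196; moves of over 1.5 times also befell EIF2S2 (to -0.0752), DNAJC3 (to -0.251 and -0.1), GOT1 (to 0.0767) and HSPA5 (to -0.0489). The stricter filter removed CHAC1, SESN2 and DDIT4. TPM-like values carry no depth, so counting error could not be set apart from other spread.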
